A study of Mus musculus with 5 samples.

Results

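Mitosis genes were followed in C2C12, a mouse cell line of myoblasts, which are the precursors of skeletal muscle fibres. The set holds 40 genes of the kinetochore, the spindle, the spindle checkpoint, cytokinesis and mitotic exit, chosen by gene symbol. All 40 were found among the 12615 genes of the table of normalized counts, and all 40 passed the filter of a mean normalized count of at least 10 that left 11990 genes for testing.

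RNA was sequenced from 2 samples called miR-16 knockdown and 3 samples with an empty control vector (pCMVmiR), all of the same unmodified cell line. Each group received 1 ug of plasmid DNA by transfection for 5 hours, in growth medium with serum. The treatment text speaks of plasmid DNA for miR-16-1, and the group label of knockdown. No mature miRNA is listed among the measured genes, and whether miR-16 was lowered or raised is therefore known from the label alone. Nothing in the labels says whether the samples are separate cultures, and p-values therefore measure only sample-to-sample spread, possibly technical in origin.

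Depth was estimated at 15.1 to 20.1 M reads per sample. Knockdown samples 1 and 2 and empty vector 2 shared a flow cell (B), and empty vector samples 1 and 3 another (A), by the column names. Values on flow cell B, where empty vector 2 is the only control, therefore stand beside pooled values. The share of normalized counts from the ribosomal RNA gene Rn18s was 0.413% and 0.536% in the knockdown samples, against 1.46%, 0.467% and 2.94% in empty vector samples 1, 2 and 3. Of the other 4 ribosomal and nuclear RNAs of the quality list, Malat1 had 3767 and 2860 normalized counts with knockdown and 5771, 4443 and 5671 with empty vector, a log2 difference of -0.68 (limma adjusted p = 0.527, or 0.0124 without knockdown 1). The log2 differences were -0.58 for Rn45s and -1.36 for Kcnq1ot1, both with groups that did not overlap, and 0.10 for Neat1, with overlap. On flow cell B they were -0.44 for Malat1, -0.30 for Rn45s, -1.09 for Kcnq1ot1 and -0.016 for Neat1. The part of these RNAs in the results was not tested. All 6 myoblast markers were present, with a summed normalized count of 9344 and 9879 in the knockdown samples and of 9285 to 9922 in the empty vector samples. Of other markers, 1 of 8 for differentiated muscle was in the table, 3 of 7 for macrophages and leukocytes, 1 of 4 for endothelium, 1 of 4 for epithelium and 0 of 3 for adipocytes. The macrophage and leukocyte list summed to 91.6 and 104 normalized counts with knockdown, against 60.9, 47.9 and 91.1 with empty vector. Most of it was Cd68, at 79.8 and 91.9 with knockdown and 44.9, 30.8 and 70.7 with empty vector. Its log2 difference was 0.88 (limma adjusted p = 0.565), with 1.44 on flow cell B alone. Csf1r and Lyz2, the rest of that list in the table, had lower means with knockdown. These were 7.39 against 9.40 for Csf1r and 4.64 against 8.41 for Lyz2, with groups that overlapped. Each of the other lists summed to at most 59.3, and the part of these markers in the results was not tested.

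In mitosis the kinetochore, a protein stack built on centromeric chromatin, ties each chromosome to spindle microtubules. Free kinetochores keep the spindle checkpoint active. Once all are attached, the anaphase promoting complex marks securin and cyclin B for destruction, the sister chromatids part, and the midzone of the spindle directs the cleavage furrow. Most of these genes are transcribed in G2 and M phase, so in a culture their transcripts mark dividing cells. Cycling myoblasts leave the cell cycle when they differentiate. In bulk RNA, fewer cells in mitosis and less RNA per mitotic cell cannot be told apart.

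The promoters of these genes share a sequence that the choice of genes did not use. G2 and M phase genes are known for a short element near the start site, the cell cycle genes homology region (CHR), together with upstream CCAAT boxes that bind the factor NF-Y. RefSeq promoters (GRCm38.p6, 250 bases before to 50 bases after the annotated start) were found for 34 of the 40 genes. Foxm1, Spc24, Aurkb, Incenp, Tpx2 and Kif20a had no entry. A CHR, searched as TTTGAA or TTCGAA on both strands, was present in 27 of 34 promoters (79.4%), against 14.0% of the 10071 promoters of genes in the table and 19.2% of all 32851 promoters. CCAAT on either strand was present in 25 of 34 (73.5%), against 39.7% and 37.4%. Both motifs occurred in 24 of 34 (70.6%), against 6.19% and 7.52%, and in 21 of these 24 the last CHR lay downstream of the last CCAAT. The promoters of Ccnb2, Cenpf and Cenpa are printed because they show this arrangement in genes whose values lay on opposite sides of the comparison between groups. CHR and CCAAT matches are in capitals (ATTGG is CCAAT on the other strand), and each sequence runs with the gene.
Ccnb2, chr9:70421505-70421804, minus strand: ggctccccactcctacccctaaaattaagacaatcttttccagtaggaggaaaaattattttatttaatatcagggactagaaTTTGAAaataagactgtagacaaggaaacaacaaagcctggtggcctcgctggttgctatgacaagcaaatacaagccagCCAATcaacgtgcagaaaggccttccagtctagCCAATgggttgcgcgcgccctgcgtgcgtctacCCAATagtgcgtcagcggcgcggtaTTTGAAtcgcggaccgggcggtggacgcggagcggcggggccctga
Cenpf, chr1:189688037-189688336, minus strand: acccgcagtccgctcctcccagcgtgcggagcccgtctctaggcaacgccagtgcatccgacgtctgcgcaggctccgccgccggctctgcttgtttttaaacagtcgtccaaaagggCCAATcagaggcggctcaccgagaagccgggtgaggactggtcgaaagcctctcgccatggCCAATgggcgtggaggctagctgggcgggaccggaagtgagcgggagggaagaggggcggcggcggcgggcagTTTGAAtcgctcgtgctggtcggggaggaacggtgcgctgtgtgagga
Cenpa, chr5:30666636-30666935, plus strand: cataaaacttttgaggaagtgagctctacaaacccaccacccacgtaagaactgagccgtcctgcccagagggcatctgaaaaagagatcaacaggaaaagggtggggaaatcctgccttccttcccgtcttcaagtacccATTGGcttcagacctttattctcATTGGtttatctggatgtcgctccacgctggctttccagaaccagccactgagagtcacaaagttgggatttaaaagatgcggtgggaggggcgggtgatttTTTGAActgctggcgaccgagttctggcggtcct

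**Figure D1:**
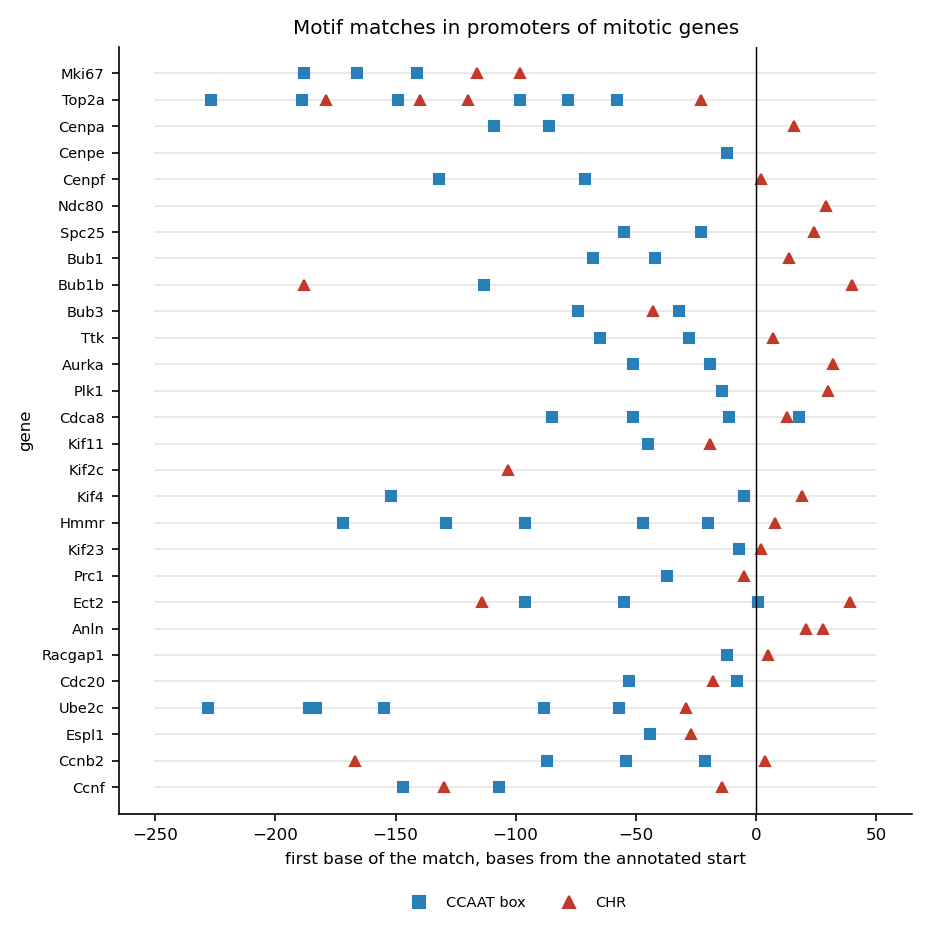
Positions of CHR matches (triangles) and CCAAT matches (squares), as the first base of the match in bases from the annotated start (0), in the promoters of the mitotic genes that hold at least 1 match. The median CHR position was -1.5 bases in these genes and -141 bases in the genes of the table, and the CCAAT boxes mostly stand to the left of the CHR.

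Sites for miR-16, the miRNA of the knockdown, were uncommon. miR-16-5p, encoded on chromosomes 14 and 3, pairs through its seed (bases 2 to 8, in capitals), which it shares with miR-15a-5p, miR-15b-5p and miR-195a-5p among others. The sequences are from RefSeq (GRCm38.p6).
mmu-miR-16-5p, chr14:61631936-61631957, minus strand, and chr3:69009918-69009939, plus strand: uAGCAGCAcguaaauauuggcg
mmu-miR-15a-5p, chr14:61632075-61632096, minus strand: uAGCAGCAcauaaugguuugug
The longest annotated 3' UTR held a site of 7 or 8 bases (TGCTGCT, or GCTGCTA) in 8 of 40 mitotic genes (20%), against 32.1% of 11516 tested genes with an annotated 3' UTR. The median 3' UTR was 836.5 nt long in the mitotic genes and 1404.5 nt in all of those genes. Kif23 was the only one of the 40 with an 8-base match that ends in A. The sites of Kif23, of the kinase gene Aurka and of the checkpoint gene Mad2l1 are given with GRCm38 positions, the matched bases in capitals.
Kif23, chr9:61917457-61917483, minus strand: aaacaaacaaaTGCTGCTAttgattag
Aurka, chr2:172356642-172356667, minus strand: cccaagaaccaTGCTGCTtttcctga
Mad2l1, chr6:66543304-66543329, plus strand: tcccatccacaGCTGCTAattgttgg
The 8 genes with a site had a median log2 difference, knockdown minus empty vector, of 0.11, and the 32 without a site 0.033. Over all tested genes the medians were -0.021 with a site and 0.010 without. On flow cell B the mitotic medians were 0.14 with a site and 0.063 without, against -0.016 and -0.0079 over all tested genes. Among the 8, Birc5, Mad2l1, Knstrn and Bub3 have coding lengths of 420 to 978 nt, and the others of 1251 to 2859 nt. The median coding length of the 40 is 2044.5 nt. The part of the sites or of length in these medians was not tested.

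No mitotic gene passed the test between knockdown and empty vector. By limma with Benjamini-Hochberg adjustment over all 11990 genes, 0 of 40 passed at an adjusted p of 0.05, and 0% of all genes did. The lowest adjusted p among the 40 was 0.565. Without adjustment, 7 of the 40 had p under 0.05, against 8.13% of all genes, and they went both ways. Cenpa, Spc24, Aurkb and Pttg1 had higher values with knockdown and Mki67, Cenpe and Cenpf lower ones. Without the variance trend, limma also passed 0 genes, and 1 of the 40 was under 0.05 unadjusted, against 5.81% of all genes. With empty vector 2 left out 0 of the 40 passed, against 0.234% of all genes. With the replicate number as a block Mki67, Cenpe and Cenpf passed, 3 of the 40, against 2.59% of all genes. That block pairs samples by number alone, which nothing in the labels bears out. Empty vector 3, the only sample of its number, drops out of the comparison.

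Differences were small throughout. Log2 differences lay between -0.38 (Mki67) and 0.28 (Spc24), and 26 of the 40 were smaller than 0.1 in either direction. A difference of at least 1.2-fold was seen in 4 genes (10%), against 17.1% of all tested genes. The unadjusted 95% interval of a single gene reached a median of 0.18 to either side on the log2 scale, and 0.15 to 0.34 over the 40. From the estimated value of 1 read in each sample, about 545 to 14146 reads lay behind each value. Their coefficient of variation among the empty vector samples had a median of 5.39%, against 8.57% over all tested genes. The 40 genes were also at a higher level, with a median mean normalized count of 2386, against 545 over all tested genes. The part of level in the small differences and spread was not tested.

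More mitotic genes were on the higher than on the lower side. Of the 40, 29 had a positive log2 difference, with a median of 0.039, against 6022 of 11990 and a median of 0.00073 over all tested genes. On flow cell B, 33 of 40 were positive with a median of 0.081. The groups did not overlap for 15 genes on the higher side and 2 on the lower, against 11.4% and 12.4% of all tested genes. Empty vector 2 had the lowest value of the 5 samples for 17 of the 40 genes and the highest for 0. Knockdown 1 had the highest for 9 and the lowest for 0, while knockdown 2 had the highest for 14 and the lowest for 9. Leaving out 1 of the 5 samples moved the log2 difference by over 1.5 times or turned its direction for 29 of the 40 genes, and turned it for 15.

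**Figure D2:**
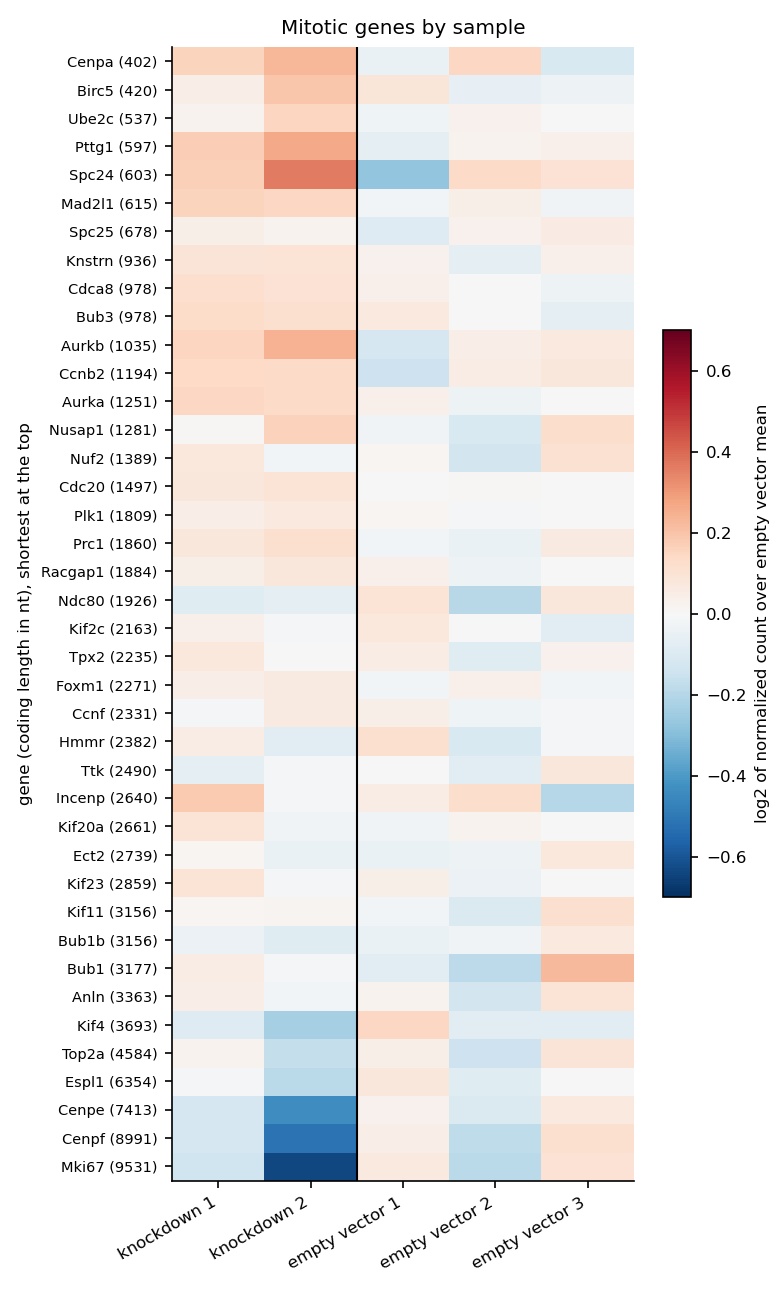
Log2 ratio of each sample's normalized count to the empty vector mean of the same gene (colour), for the 40 mitotic genes from the shortest coding length at the top to the longest at the bottom, with knockdown samples left of the line and empty vector samples right of it. Red dominates the knockdown columns at the top, and the deepest blue is in knockdown 2 for Cenpe, Cenpf and Mki67 at the bottom.

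Mki67, Top2a and Foxm1 act on mitotic chromatin and transcription. Mki67 encodes Ki-67, a coat of mitotic chromosomes used as a marker of dividing cells. It had 11846 and 8414 normalized counts in the knockdown samples, against 13699.8, 11479.7 and 14014 in the empty vector samples. Knockdown 2 was below all other samples, while knockdown 1 lay above empty vector 2. The log2 difference of Mki67 was -0.38 ± 0.15 (SE; limma adjusted p = 0.577), with -0.20 on flow cell B alone. Knockdown 2 set most of this value, which was -0.14 without knockdown 2 and -0.63 without knockdown 1 (limma adjusted p = 0.0143). Without knockdown 1, Mki67 was the only gene of the 40 that passed, against 0.892% of all genes.

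Top2a encodes topoisomerase II alpha, which untangles sister DNA strands. It had 9824 and 8608 normalized counts with knockdown and 9967, 8752 and 10298 with empty vector, where the groups overlapped. The log2 difference of Top2a was -0.069 ± 0.085 (SE; limma adjusted p = 0.85), with 0.071 on flow cell B alone and 0.026 without knockdown 2. Foxm1 encodes a transcription factor of G2 and M phase genes. Its groups did not overlap, with 4187 and 4230.5 normalized counts with knockdown against 4002, 4159 and 4009 with empty vector, but the log2 difference was only 0.053.

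The centromere and kinetochore genes had the widest spread, with 5 of 8 positive and 3 negative. Cenpe, a kinesin motor that moves chromosomes to the spindle equator, had 3171 and 2541 normalized counts with knockdown and 3504, 3203 and 3595 with empty vector. Cenpf, a large coiled-coil protein of the outer kinetochore, had 3665 and 2783 with knockdown and 4113, 3517 and 4306 with empty vector. Both genes were lowest in knockdown 2. The groups did not overlap for Cenpe, whereas knockdown 1 lay above empty vector 2 for Cenpf.

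The log2 differences were -0.27 ± 0.096 (SE) for Cenpe and -0.31 ± 0.12 (SE) for Cenpf, each at a limma adjusted p of 0.565. With flow cell B alone they were -0.17 and -0.14, and without knockdown 2 both were -0.11. Cenpa encodes the histone H3 variant that marks the centromere. It had 1976 and 2083 normalized counts with knockdown and 1714, 1957 and 1649 with empty vector, and both knockdown samples were above all controls. The log2 difference of Cenpa was 0.20 ± 0.090 (SE; limma adjusted p = 0.597), but 0.052 on flow cell B, since empty vector 2 was the highest control.

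The 4 subunits of the NDC80 complex, which binds microtubules directly, did not all lie on the same side. Spc24 had 790.3 and 906 normalized counts with knockdown and 582, 774 and 756 with empty vector, a log2 difference of 0.28 (limma adjusted p = 0.597). Its groups did not overlap, and empty vector 1 was far below the other controls. Spc25, the partner of Spc24 at the inner end of the complex, had 0.035, Nuf2 0.030 and Ndc80 itself -0.070. On flow cell B the values were 0.13 for Spc24, 0.0023 for Spc25, 0.15 for Nuf2 and 0.12 for Ndc80. Knstrn, which encodes a protein that stabilises kinetochore attachment, had 0.092, with 1704 and 1707 normalized counts with knockdown above 1636, 1524 and 1640.2 with empty vector.

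Over all samples, Mad2l1 and Bub3 of the spindle checkpoint were on the higher side and the kinases near 0. On flow cell B this did not hold for the kinase gene Bub1. The coding lengths of Mad2l1 and Bub3 are 615 and 978 nt, against 2490 to 3177 nt for the kinase genes. The part of length in this contrast was not tested. Mad2l1 encodes MAD2, the protein that holds back the anaphase promoting complex. It had 1864 and 1849 normalized counts with knockdown and 1653, 1720.3 and 1648 with empty vector, and the groups did not overlap. Bub3, the WD40 adaptor that brings BUB1 and BUBR1 to the kinetochore, had 2063 and 2041 with knockdown and 1980.0, 1882 and 1803 with empty vector. Their log2 differences were 0.15 ± 0.079 (SE) for Mad2l1 and 0.12 ± 0.081 (SE) for Bub3, with limma adjusted p-values of 0.652 and 0.72.

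On flow cell B, Mad2l1 had 0.11 and Bub3 0.12. Over all samples the kinase genes Bub1 and Ttk had 0.029 and -0.039, and Bub1b, which encodes BUBR1, -0.062. Flow cell B alone gave 0.20 for Bub1, above Mad2l1 and Bub3, 0.037 for Ttk and -0.036 for Bub1b. For these 3 the groups overlapped. Bub1 was 1423 and 1357 normalized counts with knockdown, within the range of 1301, 1209 and 1605 with empty vector.

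All 6 genes of the mitotic kinases and the chromosomal passenger complex had positive log2 differences, with a median of 0.12. The complex joins the kinase Aurora B to INCENP, survivin and borealin and corrects faulty attachments. Aurkb had 1368 and 1456 normalized counts with knockdown and 1133, 1269.9 and 1289 with empty vector. Aurka, the kinase of the spindle poles, had 2329 and 2309 with knockdown and 2156, 2056 and 2108 with empty vector. For both Aurora kinases each knockdown sample was above every control.

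The log2 differences were 0.20 ± 0.090 (SE) for Aurkb and 0.14 ± 0.077 (SE) for Aurka, with limma adjusted p-values of 0.597 and 0.675, while flow cell B alone gave 0.15 and 0.17. Birc5, which encodes survivin, had 2486 and 2753 normalized counts with knockdown and 2555, 2310.2 and 2349 with empty vector, so the groups overlapped through empty vector 1. Its log2 difference was 0.12, and 0.050 without knockdown 2. Cdca8, the borealin gene, had 0.11 and Plk1, the Polo kinase of mitotic entry and exit, 0.058, both with groups that did not overlap. Incenp had 0.090 with all samples but -0.041 on flow cell B, -0.0096 without knockdown 1 and -0.0059 without empty vector 3.

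Spindle motors and spindle proteins gave little difference over all samples, with 4 of 6 positive and a median of 0.018. On flow cell B 5 of 6 were positive, with a median of 0.11. Kif4, a chromokinesin of the chromosome arms and the midzone, had 1644 and 1493 normalized counts with knockdown and 1937, 1663 and 1658 with empty vector. It was 1 of the 2 genes whose groups stood apart on the lower side, by a narrow margin. The log2 difference of Kif4 was -0.16 ± 0.093 (SE; limma adjusted p = 0.694), with -0.086 on flow cell B alone. Of its longest transcript, 16.7% overlaps exons of Pdzd11 on the other strand.

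Nusap1, a microtubule bundling protein gene, had 977 and 1085 normalized counts with knockdown and 955, 899 and 1055 with empty vector, with overlap. Tpx2, an activator of Aurora A, had 4611 and 4386 with knockdown and 4549.6, 4143 and 4475 with empty vector, also with overlap. Their log2 differences were 0.089 for Nusap1 and 0.036 for Tpx2, with 0.19 and 0.12 on flow cell B alone. Single samples decided both values. Nusap1 had 0.014 without knockdown 2 and 0.16 without knockdown 1, and Tpx2 had 0.00026 without knockdown 1 and -0.0047 without empty vector 2. Kif11, the motor that pushes spindle poles apart, had 0.021, the microtubule depolymerase gene Kif2c 0.015 and the hyaluronan receptor and spindle gene Hmmr -0.0087. Flow cell B alone gave 0.12 for Kif11, 0.016 for Kif2c and 0.096 for Hmmr.

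Of the 6 midzone and cytokinesis genes 5 were positive, with a median of 0.038. On flow cell B all 6 were positive, with a median of 0.088. Prc1, which bundles midzone microtubules, had 3543 and 3625 normalized counts with knockdown and 3315, 3251 and 3501 with empty vector. Racgap1, a part of centralspindlin, had 6294 and 6486 with knockdown and 6275, 5974 and 6137 with empty vector. In both the knockdown samples were above all controls, by less than 1% of the level of Racgap1 between knockdown 1 and empty vector 1. Their log2 differences were 0.096 ± 0.076 (SE) and 0.060 ± 0.070 (SE).

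Kif23, the motor of centralspindlin and the gene with the 8-base miR-16 site printed above, had 2409 and 2233 normalized counts with knockdown and 2317, 2195 and 2251 with empty vector. The groups overlapped and the log2 difference was 0.041 ± 0.079 (SE; limma adjusted p = 0.911), with 0.079 on flow cell B alone and -0.013 without knockdown 1. Anln, an actin-binding scaffold of the furrow, had 0.018, Ect2, the exchange factor that switches on RhoA, -0.014, and the midzone kinesin gene Kif20a 0.035. Flow cell B alone gave 0.14 for Anln, 0.019 for Ect2 and 0.0099 for Kif20a. Of the longest Kif20a transcript 34.6% overlaps exons of Cdc23 on the other strand, and without the strand setting their reads cannot be told apart.

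Anaphase and cyclin genes were mostly on the higher side, with 5 of 6 positive and a median of 0.089. Pttg1 encodes securin, which blocks the protease separase until anaphase. It had 953 and 1017 normalized counts with knockdown and 809.5, 860.1 and 867 with empty vector, and both knockdown samples were well above the controls. The log2 difference of Pttg1 was 0.22 ± 0.092 (SE; limma adjusted p = 0.574), with 0.19 on flow cell B alone. Espl1, the separase gene, had -0.099 with overlap, or -0.013 without knockdown 2, at 3043 and 2700.3 normalized counts with knockdown against 3252, 2899 and 3069 with empty vector.

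Ccnb2, a cyclin partner of CDK1, had 1425 and 1419.5 normalized counts with knockdown and 1172, 1345 and 1371 with empty vector. Cdc20, an activator of the anaphase promoting complex, had 4290.2 and 4336 with knockdown and 4043, 4077 and 4049 with empty vector. For both genes the groups did not overlap, and the controls of Cdc20 lay within 33.5 counts of each other. The log2 differences were 0.14 ± 0.092 (SE) for Ccnb2 and 0.088 ± 0.072 (SE) for Cdc20, with 0.080 and 0.081 on flow cell B. Ube2c, the ubiquitin conjugating enzyme gene of the complex, had 0.089 and Ccnf 0.027. Without knockdown 2 they were 0.026 for Ube2c and -0.0074 for Ccnf, and without knockdown 1 they were 0.15 and 0.061. Of the longest Ube2c transcript 27.0% overlaps exons of Tnnc2 on the other strand.

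**Figure D3:**
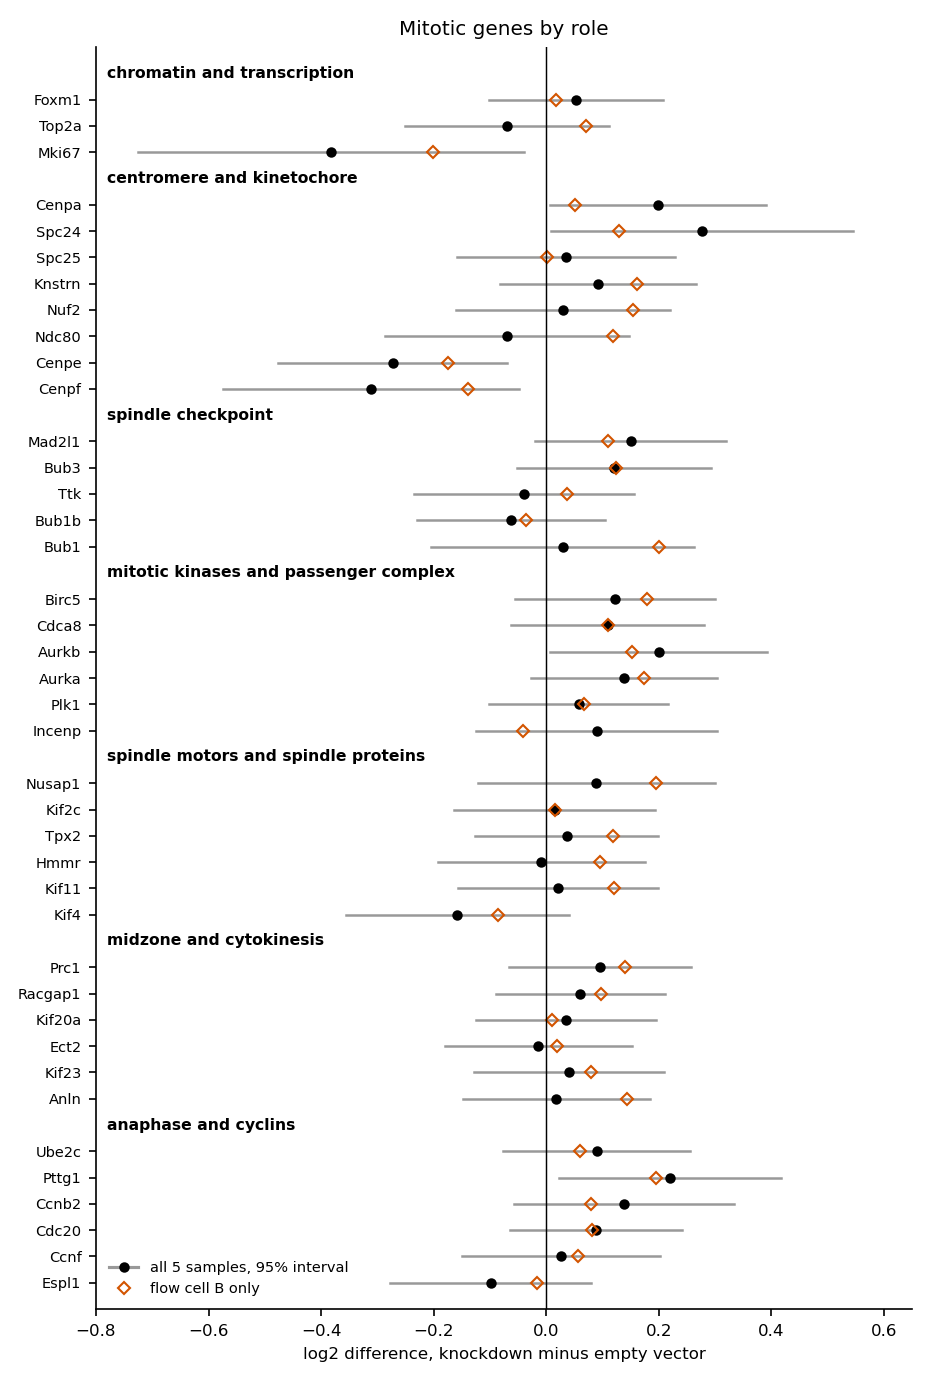
Log2 difference, knockdown minus empty vector, of the 40 mitotic genes by role and, within a role, from short to long coding length. Filled points with bars are the limma estimate over 5 samples with its 95% interval, and open diamonds the difference on flow cell B alone. Intervals of 33 genes include 0, and Mki67, Cenpe and Cenpf lie on the far left.

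Over all samples the longer mitotic genes had smaller log2 differences than the shorter ones, and both medians were above 0. Split at their median transcript length of 3740 nt, the longer 20 genes had a median log2 difference of 0.020, with 11 positive, and the shorter 20 had 0.089, with 18 positive. All tested genes split at the same length had -0.067 above it and 0.050 below it. On flow cell B the medians were 0.084 for the longer 20 and 0.081 for the shorter 20. The slope over the 40 genes was -0.14 per doubling of transcript length and -0.074 on flow cell B, against -0.089 and -0.037 over all tested genes. Whether the mitotic genes differ from all genes in this slope was not tested.

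The longest annotated transcript is a coarse measure for some of these genes. For Mad2l1 it has 7557 nt through a long 3' UTR, while its coding sequence has 615 nt. Coding length, a measure added after the values were seen, ordered the differences more closely. Pearson's r with the log2 of length was -0.85 over the 40 genes by coding length and -0.72 by transcript length, against -0.34 and -0.33 over all tested genes. The slopes per doubling of coding length lay nearer to each other, at -0.099 over the 40 and -0.075 over all tested genes. By the median length of a gene's transcripts, r was only -0.16 over the 40 and -0.20 over all tested genes. These correlations run across genes of the same 5 libraries, which are not independent replicates.

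The 10 genes with a coding length under 1000 nt are Cenpa, Birc5, Ube2c, Pttg1, Spc24, Mad2l1, Spc25, Knstrn, Cdca8 and Bub3. All 10 had a positive log2 difference, with a median of 0.12, and all 10 were positive on flow cell B, also with a median of 0.12. The 4 genes over 5000 nt, Mki67, Cenpf, Cenpe and Espl1, were all negative, with a median of -0.29, and of -0.16 on flow cell B. The 26 genes between had a median of 0.033. Among all tested genes, those under 1000 nt had a median of 0.077, those over 5000 nt -0.24, and those between -0.023. Of all genes under 1000 nt 69.6% were positive, and of all 512 genes over 5000 nt 482 were negative. Their flow cell B medians were 0.026 under 1000 nt and -0.16 over 5000 nt.

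**Figure D4:**
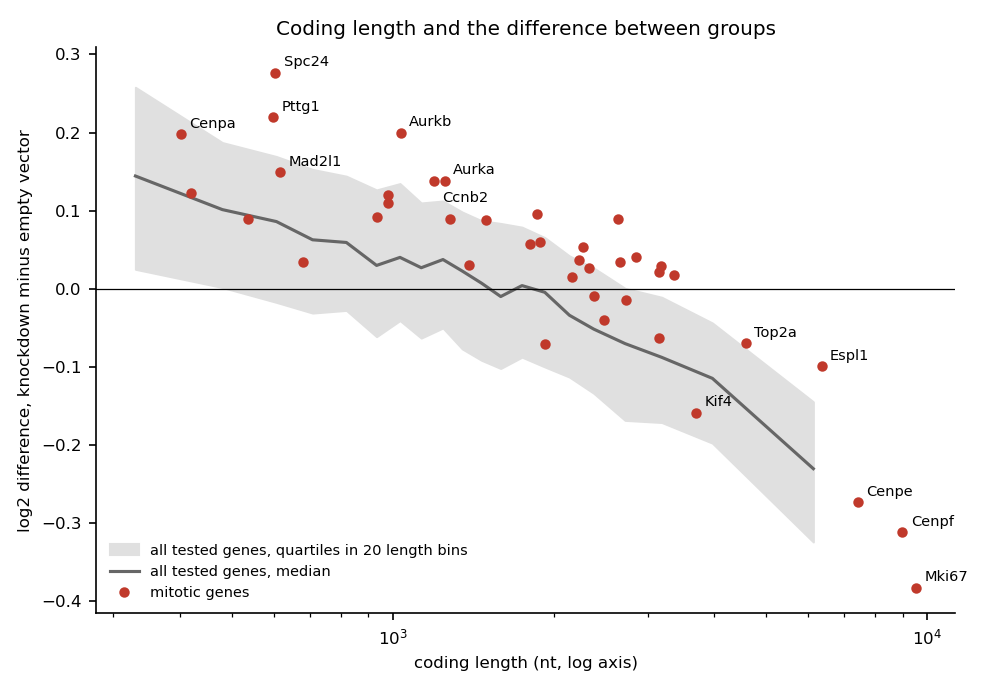
Log2 difference, knockdown minus empty vector, against coding length in nt on a log axis, for the mitotic genes (points) and all tested genes in 20 bins of coding length (line, median; band, quartiles). The points descend with length as the line does, and 33 of the 40 lie above the median of their bin.

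Set against genes of like coding length, the mitotic genes were mostly on the higher side. In the bins of coding length, 33 of 40 lay above the median of their bin, by a median of 0.064 log2 units. On flow cell B 36 of 40 did so, by 0.10. That value rests on empty vector 2 as the only control, which was the lowest of the 5 samples for 17 of the 40 genes. After each sample's linear trend on transcript length was removed, 31 of 40 were positive with a median of 0.060, against 0.0080 over all tested genes. With that trend removed, Mki67 had -0.23, Cenpe and Cenpf each -0.15, Espl1 0.00056, Pttg1 0.14, Cenpa 0.23 and Mad2l1 0.27. Before the removal Cenpa had 0.20 and Mad2l1 0.15. The trend was taken on the longest transcript, of 3806 nt for Cenpa and 7557 nt for Mad2l1. Their coding lengths are only 402 and 615 nt, so the rise of these 2 values depends on the length measure.

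Single samples carried the length pattern in unequal shares. Relative to each gene's mean over the samples, the slope of the mitotic genes per doubling of transcript length was -0.015 in knockdown 1 and -0.16 in knockdown 2, against 0.12, -0.011 and 0.064 in empty vector samples 1, 2 and 3. Knockdown 1 and empty vector 2 were thus nearly level, and knockdown 2 and empty vector 1 lay at opposite ends. The 4 genes over 5000 nt had a median log2 level of 0.014 and -0.35 in the knockdown samples, against 0.16, -0.036 and 0.21 in the empty vector samples. In the 10 genes under 1000 nt it was 0.070 and 0.10 with knockdown, against -0.073, -0.032 and -0.064 with empty vector, so both knockdown medians stood above all controls. Over all tested genes the slopes were -0.014 and -0.092 with knockdown, against 0.071, -0.017 and 0.052 with empty vector. The part of a length trend of the libraries in the mitotic differences was not tested beyond removing it as above.

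**Figure D5:**
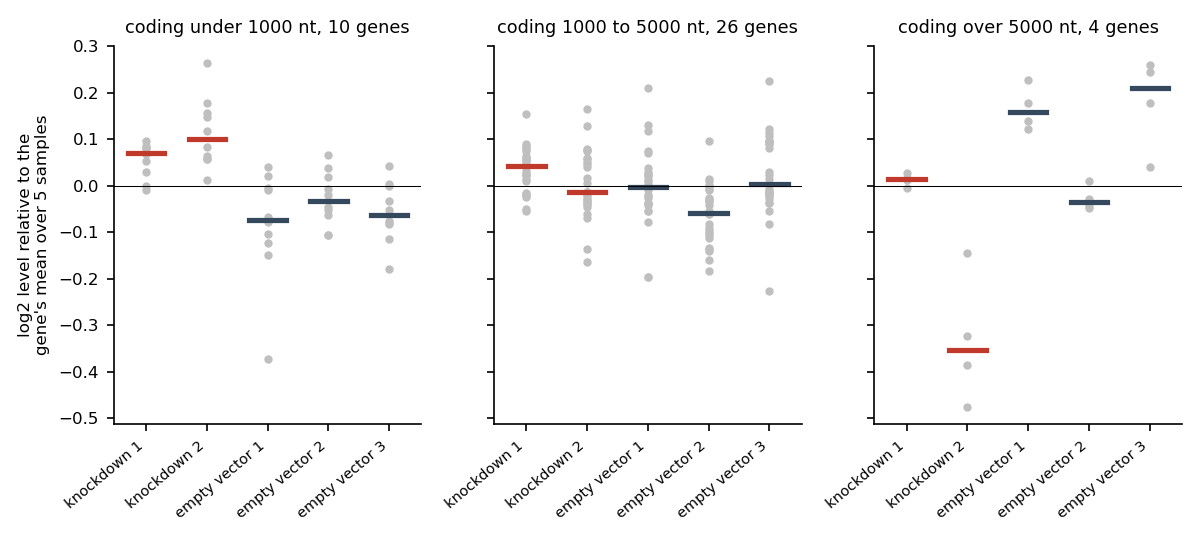
Log2 level of each mitotic gene relative to its own mean over the 5 samples (grey points) with the median per sample (bars, red for knockdown and dark blue for empty vector), in 3 classes of coding length. Knockdown 2 stands lowest in the class over 5000 nt, at a median of -0.35, and both knockdown samples stand highest in the class under 1000 nt.

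The genes differ widely in level. Per kb of the annotated principal transcript, the mean over the 5 samples was highest for Ube2c, at 2784 ± 138 normalized counts per kb (SD, n = 5). Birc5 had 2630.1 ± 187, Cdc20 2319.5 ± 79.2 and Racgap1 2083 ± 63.9 (SD, n = 5). At the low end were Cenpf with 330.3 ± 53.4, Nusap1 with 336 ± 25.5 and Kif4 with 337 ± 32.2 (SD, n = 5), which lie within their spread of each other. The choice of transcript sets part of this order, since Birc5 had 747 and Ube2c 1229 normalized counts per kb of their longest transcript.

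A list of 105 further genes of centromere, kinetochore, spindle and cytokinesis was read from the same fit, and all 105 were tested. By limma with Benjamini-Hochberg adjustment 0 passed, and the lowest adjusted p was 0.565. There were 57 positive and 48 negative log2 differences, with a median of 0.014, and on flow cell B 70 were positive with a median of 0.032. Without adjustment 5 higher and 7 lower genes had p under 0.05, against 2.83% and 5.3% of all genes. Haspin, the kinase gene that marks centromeric histone H3, had 355 normalized counts in both knockdown samples, against 320.4, 256 and 257 with empty vector. Haus8 and Haus4, subunits of augmin, which branches spindle microtubules, had log2 differences of 0.35 and 0.30, and Haspin 0.36.

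On the lower side were Cep192, a scaffold gene of the centrosome, with -0.35, Aspm, a spindle pole gene, with -0.34, and Hjurp, the chaperone gene that loads CENP-A, with -0.24. Hjurp had 1505 and 1331 normalized counts with knockdown, below 1749.7, 1612 and 1659 with empty vector. On flow cell B the values were 0.47 for Haspin, 0.33 for Haus8, 0.41 for Haus4, -0.12 for Cep192 and -0.19 for Aspm and Hjurp. The limma adjusted p was 0.565 for each of the 6 genes.

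In the authors' deposited table of their own comparison, 7 of the 40 mitotic genes (17.5%) had a p-value under 0.05, against 12.6% of its 6588 genes, and they are the 7 genes named above. No adjusted p-value of the 40 was under 0.05 in the authors' deposited table (0 of 40, against 1.06% of its genes). The lowest adjusted p-value among the 40 in the authors' deposited table was 0.131 for Cenpe, with a ratio of inhibition to control of 0.831. For Cenpf the authors' deposited table gave 0.138 and a ratio of 0.81.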

How the data were processed

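The submitters' processing notes list STAR, Partek, DESeq2 1.34.0 and build mm9. Which step each tool did, how strand was set and which annotation was counted were not given in the sources used here. The deposited signal is a normalized read count per gene. Low values were mostly whole multiples of 1 read (88.7% to 89.2% within 0.02 reads), too few to recover reads, so no count model was fitted. The authors' deposited table gives p-values and a linear ratio, copied here.

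Values were taken as log2(value + 1), which understates changes of low genes, and fitted with limma 3.58.1 (R 4.3.3; variance trend, robust, two-sided) over all genes with a mean of at least 10, with Benjamini-Hochberg adjustment at 0.05. The fit was tested on simulated data. No pair of samples looked like a repeat of one library, by a chi-square per gene on estimated reads. The most alike pair, knockdown 1 and empty vector 2, crossed the groups within flow cell B, with a median chi-square of 1.63. It was 2.17 between the knockdown samples and 2.13 to 2.91 between pairs of empty vector samples. Transcript lengths and 3' UTRs came from GENCODE M21 (GRCm38), which held 99.1% of the symbols, and promoters from RefSeq, the first where a gene has several. Genes and lists were chosen with earlier results of these data known. All 40 genes are described; values per sample are given for the 3 (2 in roles under 6 genes) with the smallest p per role, and for others chosen after their values were seen. Of the further genes, 3 per direction with the smallest p and a mean of at least 50 are named. Alternatives covered pseudocount, filter, variance trend, quantile normalization, left-out samples, replicate block, flow cell and transcript length.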

Additional observations from a re-analysis of the deposited data

How the results depend on the processing

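The calls on the mitotic genes did not change with the pseudocount, the filter on low values, the variance trend, quantile normalization, a flow cell term or the length trend, where 0 of 40 passed each time. With samples left out, 0 to 1 of the 40 and 0 to 2 of the 105 further genes passed, against 0% to 0.892% of all genes. Both highest counts came without knockdown 1, where Mki67, Cit and Numa1 passed and the share of all genes was 0.892%; without empty vector 2 it was 0.234%, with 0 of the 40 and 0 of the 105. With the replicate number as a block 3 of the 40 (Mki67, Cenpe and Cenpf) and 4 of the 105 passed, against 2.59% of all genes. The correlation of deviations from the group means was 0.086 for number 1 and 0.029 for number 2. It cannot show whether the numbers pair samples. The deviations of the 2 knockdown samples mirror each other, and empty vector 2 was the only control on flow cell B. Empty vector 3, the only sample of its number, drops out of the comparison with the block.

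The median log2 difference of the 40 was 0.062 with the replicate block, 0.081 with the flow cell term and on flow cell B alone, and 0.026 to 0.062 with 1 sample left out. Longer minus shorter genes, -0.070 with all samples, came to 0.0031 with the flow cell term and on flow cell B alone, 0.0067 with the length trend removed, 0.0096 by the median length of a gene's transcripts, and -0.11 to -0.041 with 1 sample left out. The slope was -0.053 with the length trend removed, -0.026 by the median transcript length and -0.21 (without knockdown 1) to -0.071 (without knockdown 2) with 1 sample left out. Coding and principal transcript lengths were added after seeing the data and gave slopes of -0.099 and -0.11. Of 600 values of single genes under 15 alternatives, 550 kept their direction and stayed without a call, 46 turned direction and 4 passed. With 1 knockdown sample left, or empty vector 2 as lone control, that sample is assumed to vary like the others.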
